A study of Homo sapiens with 10 samples.

Results

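The drug efflux transporters read here are 9 ATP-binding cassette (ABC) genes, namely ABCB1, ABCB4, ABCC1, ABCC2, ABCC3, ABCC4, ABCC5, ABCC10 and ABCG2. A probe set, the group of probes that reads a transcript, was counted when the platform annotation gave it to a single one of these symbols. That left 22 probe sets of the 9 genes, among 41091 probe sets of 19775 genes on the array. Each gene was represented by its probe set with the highest mean over the 10 arrays.

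ABC transporters are membrane pumps that use ATP to move substrates across a membrane. The ones read here carry lipids, glutathione conjugates, cyclic nucleotides or a wide range of drugs out of cells, and P-glycoprotein, the product of ABCB1, is widely known for multidrug resistance in cultured tumour cells. It has been reported to export some proteasome inhibitors.

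RNA came from cultured mantle cell lymphoma lines, a tumour of mature B cells, in logarithmic growth. There were 3 arrays of HBL2 BR, 3 of HBL2 PT, 2 of JEKO BR and 2 of JEKO PT. BR cells carry resistance induced with bortezomib, a proteasome inhibitor, and PT cells are the matched cells of the same line, taken as parental from knowledge of the study. The labels do not give the drug dose, whether BR cells were under drug at harvest, whether they are clones, or whether each array is a culture of its own. A p-value here sets a change against the spread among these arrays alone, and that spread may be technical.

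The deposited value is a unitless score from 0 to 4.99 with a median of 0.73 on every array. Neither a log scale nor its base is stated, so changes are differences in deposited units and not fold changes. The 5 B cell markers read, CD79A, CD79B, MS4A1, PAX5 and CD22, and the mantle cell lymphoma genes CCND1 and SOX11 were all above the array median on 10 of 10 arrays. The 8 T and NK cell, 5 myeloid and 3 hepatocyte markers each had a mean below that median, though CD3E and the myeloid MPO each reached it on 7 of 10 arrays. Markers of other cell types did not all lie below it. Of the 6 stromal and epithelial markers, COL1A1 (1.07), KRT8 (0.77), KRT18 (0.76) and DCN (0.731) had means above it, and 2 lay below. The erythroid HBB (0.85) also lay above it and ALAS2 (0.59) below. RNA quality was read from the beta-actin control probe sets, as the 5' value less the 3' value, and overlapped between BR and PT arrays in both lines, at -1.04 to -0.69 in HBL2 BR, -1.25 to -0.58 in HBL2 PT, -1.01 to -0.76 in JEKO BR and -0.82 to -0.70 in JEKO PT.

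The 3 transporters that changed in a line were ABCB4, ABCC5 and ABCC10. RefSeq promoter entries (build GRCh38.p14) exist here for ABCC5, for ABCC10 and for ABCB1, the closest relative of ABCB4 among the 9, and they are shown because the readings below concern RNA of these genes. ABCB4 is named only. Each line gives the 250 bases before an annotated start, 5' to 3' on the gene's strand. Capitals mark motifs searched on both strands, with no overlap among the matches shown. The GC box was searched as GGGCGG. The CCAAT box was searched by those letters. The TATA box was searched as TATAAA. The E-box was searched as CACGTG. The AP-1 motif was searched as TGACTCA. The windows are chr7:87600885-87601134 (minus strand) for ABCB1, chr3:184017885-184018134 (minus strand) for ABCC5, and chr6:43427613-43427862 and chr6:43427291-43427540 (plus strand) for ABCC10.
ABCB1: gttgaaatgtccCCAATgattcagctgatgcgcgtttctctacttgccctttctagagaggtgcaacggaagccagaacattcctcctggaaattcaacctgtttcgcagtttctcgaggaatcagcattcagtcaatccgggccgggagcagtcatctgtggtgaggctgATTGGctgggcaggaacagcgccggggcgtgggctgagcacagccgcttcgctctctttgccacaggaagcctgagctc
ABCC5: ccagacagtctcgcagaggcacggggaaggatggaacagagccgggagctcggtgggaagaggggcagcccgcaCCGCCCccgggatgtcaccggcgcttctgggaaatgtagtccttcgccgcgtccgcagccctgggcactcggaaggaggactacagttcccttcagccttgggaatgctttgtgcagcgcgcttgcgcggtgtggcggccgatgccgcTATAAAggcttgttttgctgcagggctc
ABCC10 first entry: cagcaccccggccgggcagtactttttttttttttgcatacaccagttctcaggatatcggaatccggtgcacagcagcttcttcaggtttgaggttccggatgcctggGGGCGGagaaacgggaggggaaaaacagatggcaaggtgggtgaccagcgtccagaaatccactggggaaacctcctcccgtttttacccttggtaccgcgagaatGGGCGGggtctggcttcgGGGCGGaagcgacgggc
ABCC10 second entry: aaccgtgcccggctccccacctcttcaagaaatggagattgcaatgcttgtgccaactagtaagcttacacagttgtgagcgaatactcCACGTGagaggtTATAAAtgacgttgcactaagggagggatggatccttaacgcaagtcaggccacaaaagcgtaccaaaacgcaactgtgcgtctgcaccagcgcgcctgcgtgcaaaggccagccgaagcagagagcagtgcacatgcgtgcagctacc
The ABCB1 window shown held 2 CCAAT boxes, 1 on each strand. The table's other ABCB1 entry, chr7:87713296-87713545 (minus strand), held none of the motifs and is not printed. The ABCC5 window held 1 GC box and 1 TATA box. The ABCC10 entries differed, with 3 GC boxes in the first and 1 TATA box and 1 E-box in the second. Over 35116 windows of this length in the same table, 42.6% held a GC box, 32% a CCAAT box, 10.7% the TATA box, 6.34% the E-box and 4.2% the AP-1 motif. A match describes these letters only.

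In HBL2, ABCB4 and ABCC5 were lower and ABCC10 was higher in BR than in PT cells. Of 9 transporters, 7 passed the filter on low values (at or above the array median on at least 2 arrays), and of these 7, 3 were called at an adjusted p under 0.05 (limma, Benjamini-Hochberg over 14529 genes), 1 higher and 2 lower in BR. Over all genes tested 11.8% were called in this comparison, 4.91% higher and 6.86% lower. The arrays of BR and PT did not overlap for the same 3 of the 7, against 27.3% of all genes tested. The median change of the 7 was -0.059, against -9.87e-04 over all genes tested. Without HBL2 BR replicate 2 the count of called transporters was 0, and without HBL2 BR replicate 3 it was 1.

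**Figure D1:**
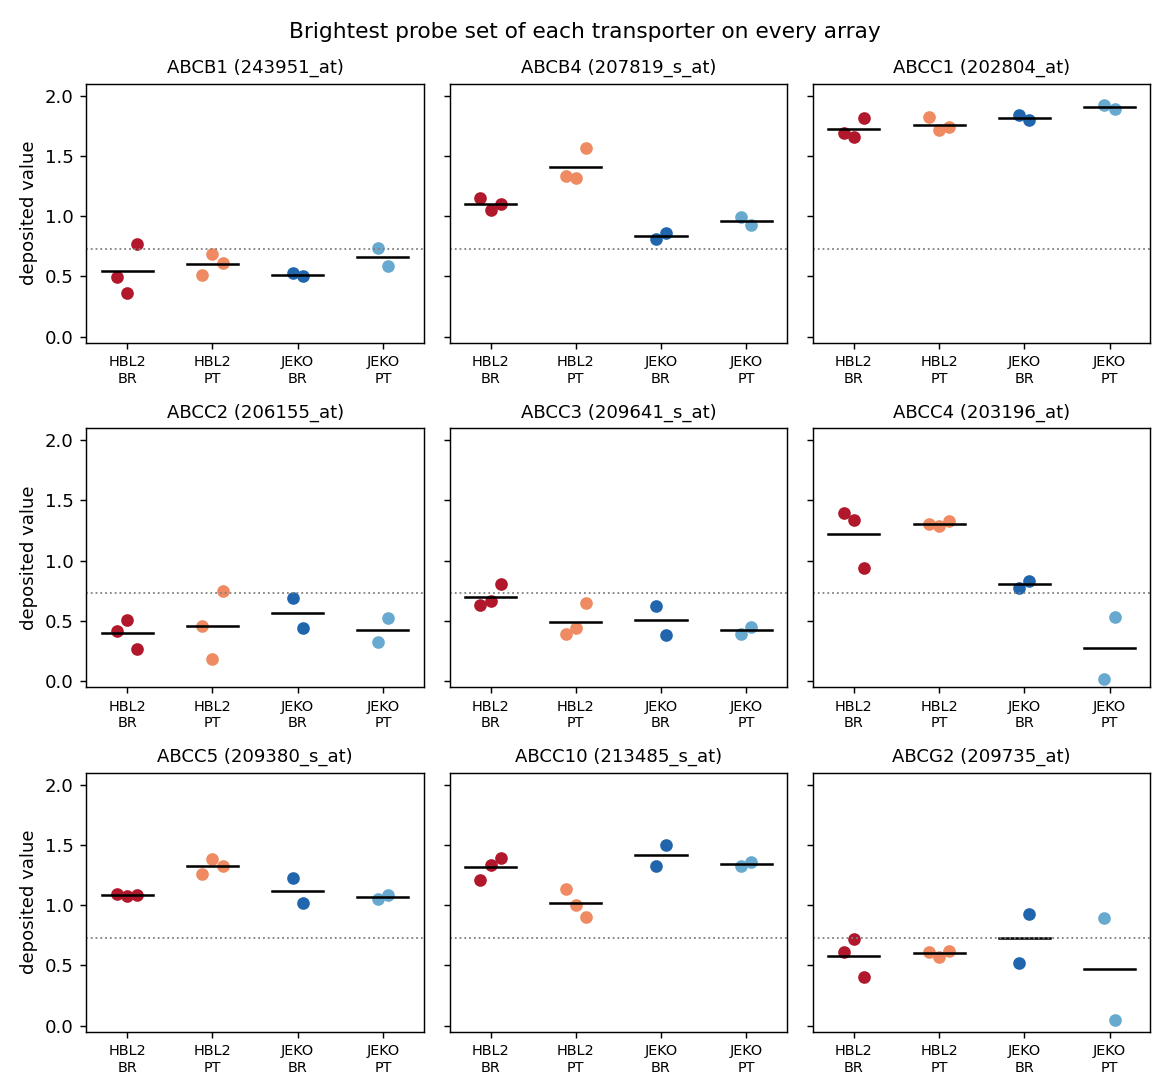
Deposited value (y axis, unitless) of the brightest probe set of each of the 9 transporters on every array, by group (x axis); points are arrays, bars are group means and the dotted line is the array median of 0.73. ABCB4 and ABCC5 sit lower and ABCC10 higher in HBL2 BR than in HBL2 PT with no overlap, while ABCB1, ABCC2 and ABCG2 lie mostly under the dotted line.

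ABCB4 encodes MDR3, a phosphatidylcholine translocator of the liver's bile canaliculus that is closely related to P-glycoprotein. Its main probe set (207819_s_at) read 1.15, 1.05 and 1.10 in HBL2 BR, against 1.33, 1.32 and 1.56 in HBL2 PT. Every BR array lay below every PT array, and the gene fell by 0.30 ± 0.072 (SE, adjusted p = 0.010). In JEKO it read 0.81 and 0.86 in BR, against 0.996 and 0.92 in PT, which is lower on both arrays but not called (-0.13 ± 0.089, adjusted p = 0.51). The test of the difference between the lines' changes was not called (-0.18 ± 0.11, adjusted p = 0.41). The 4 groups did not overlap at all, with HBL2 PT highest, then HBL2 BR, then JEKO PT, and JEKO BR lowest, and the step between HBL2 BR and JEKO PT was not tested. The gene's other probe set (1570505_at) averaged 0.72 ± 0.22 in HBL2 BR and 0.902 ± 0.070 in HBL2 PT (SD, n = 3 each), a change of -0.18 ± 0.11 that was not called (adjusted p = 0.48 in the limma fit of all 41091 probe sets). Its BR arrays read 0.847, 0.851 and 0.46, against 0.850, 0.98 and 0.87 in PT, so that 1 BR array lay within the PT range. The call on the main probe set did not hold without HBL2 BR replicate 2 (adjusted p = 0.054).

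ABCC5 encodes MRP5, which exports cyclic nucleotides and nucleotide analogues. Its main probe set (209380_s_at) read 1.09, 1.08 and 1.09 in HBL2 BR, against 1.25, 1.39 and 1.32 in HBL2 PT. The HBL2 PT arrays lay above those of every other group, since JEKO BR read 1.22 and 1.02 and JEKO PT read 1.05 and 1.08. The fall in HBL2 BR was 0.24 ± 0.066 (adjusted p = 0.028), and the change in JEKO was 0.056 ± 0.081 (adjusted p = 0.80). The difference between the lines was -0.29 ± 0.10 and was not called (adjusted p = 0.0997). The other 2 ABCC5 probe sets differed between HBL2 BR and PT by -0.10 ± 0.076 (226363_at, adjusted p = 0.59) and -0.12 ± 0.083 (1558460_at, adjusted p = 0.56), in the same direction without a call, and with overlapping arrays. The ABCC5 call was the least firm of the 3, being lost in 10 of 22 alternatives, among them without HBL2 PT replicate 2 (adjusted p = 0.12) or 3 (0.052) and without HBL2 BR replicate 1 (0.077), 2 (0.093) or 3 (0.064).

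ABCC10 encodes MRP7, which has been shown to export taxanes and vinca alkaloids. Its main probe set (213485_s_at) read 1.21, 1.34 and 1.39 in HBL2 BR, against 1.13, 1.003 and 0.91 in HBL2 PT. The BR arrays all lay above the PT arrays, and the gene rose by 0.30 ± 0.075 (adjusted p = 0.014). In JEKO it read 1.32 and 1.502 in BR, against 1.33 and 1.36 in PT, a change of 0.073 ± 0.091 (adjusted p = 0.76). HBL2 PT was thus the low group, and the HBL2 BR values lay in the range of the JEKO arrays for 2 of 3 arrays. The other probe set (215873_x_at) averaged 1.09 ± 0.035 in HBL2 BR and 0.92 ± 0.14 in HBL2 PT (SD, n = 3 each), a change of 0.17 ± 0.078 that was not called (adjusted p = 0.31 in the limma fit of all probe sets). The call on the main probe set did not hold without HBL2 BR replicate 2 (adjusted p = 0.059) or 3 (0.065). The difference between the lines was not called (0.23 ± 0.12, adjusted p = 0.29).

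**Figure D2:**
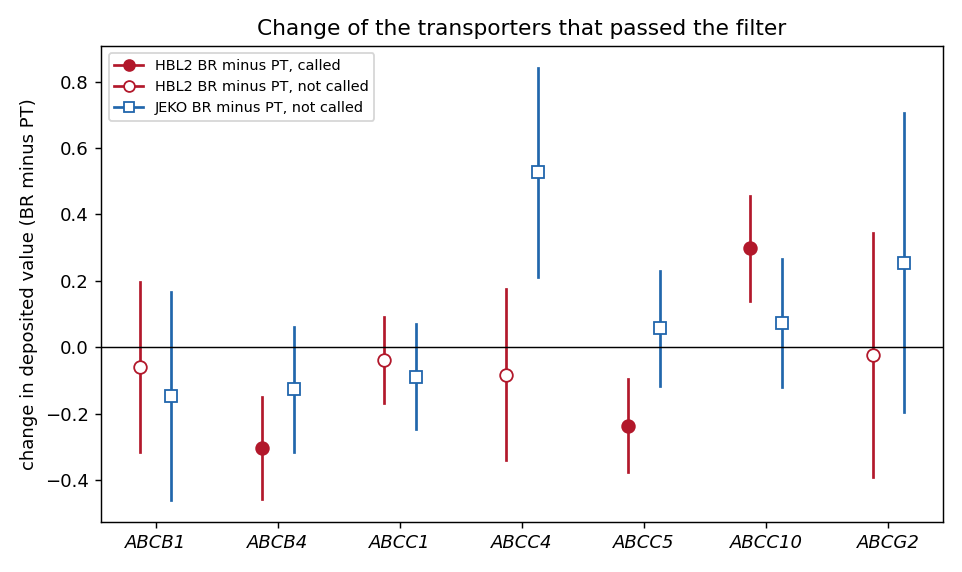
Change in deposited value, BR minus PT (y axis), of the 7 transporters that passed the filter (x axis); circles are HBL2, squares are JEKO, vertical lines are 95% intervals of the limma fit and filled symbols have an adjusted p under 0.05. ABCB4 (-0.30), ABCC5 (-0.24) and ABCC10 (0.30) are the filled symbols, all in HBL2, and the interval of ABCC4 in JEKO lies above 0 without a call after adjustment.

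The 3 called probe sets have the suffix _s_at, which marks probes shared by more than one transcript. When _s_at and _x_at probe sets were left out, 0 of the 6 transporters still tested were called in HBL2. ABCC10 was not among these 6, since both its probe sets carry such a suffix, so its call was not put to this check. ABCB4 and ABCC5 were then read from other probe sets (-0.18 and -0.10, limma adjusted p = 0.37 and 0.44). In the unfiltered limma fit of all 41091 probe sets, 2 of the 22 transporter probe sets were called in HBL2, against 4.66% of all. These were 207819_s_at of ABCB4 (limma adjusted p = 0.033) and 213485_s_at of ABCC10 (limma adjusted p = 0.040). Arrays of BR and PT did not overlap for 5 of the 22, against 20% of all probe sets, which is near that background.

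The multidrug transporters ABCB1 and ABCG2 were not called in either line. ABCB1 (243951_at) read 0.50, 0.37 and 0.77 in HBL2 BR, against 0.51, 0.69 and 0.61 in HBL2 PT, with the BR arrays on both sides of the PT arrays. The change was -0.059 (95% interval -0.31 to 0.20, adjusted p = 0.84). In JEKO it read 0.53 and 0.503 in BR, against 0.73 and 0.59 in PT, a change of -0.15 (95% interval -0.46 to 0.17, adjusted p = 0.68). ABCB1 was at or above the array median on 2 of 10 arrays, 1 HBL2 BR and 1 JEKO PT. Its other probe set (209993_at) had differences of 0.091 ± 0.10 in HBL2 and 0.062 ± 0.13 in JEKO (adjusted p = 0.775 and 0.918 in the limma fit of all probe sets), opposite in sign to the main one.

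ABCG2 encodes BCRP, a dimeric pump of stem cells and barrier tissues, and had 1 probe set. It read 0.61, 0.72 and 0.40 in HBL2 BR, against 0.62, 0.57 and 0.62 in HBL2 PT, a change of -0.023 (95% interval -0.39 to 0.34, adjusted p = 0.96). In JEKO the replicates stood far apart, at 0.52 and 0.93 in BR, against 0.89 and 0.0497 in PT, and the change of 0.25 ± 0.21 (adjusted p = 0.602) turned to -0.17 without JEKO PT replicate 2.

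ABCC1 encodes MRP1, which exports glutathione conjugates such as leukotriene C4, and both its probe sets were above the array median on 10 of 10 arrays. The main one (202804_at) read 1.69, 1.66 and 1.82 in HBL2 BR, against 1.82, 1.71 and 1.74 in HBL2 PT. The groups overlapped, and the change was -0.038 (95% interval -0.17 to 0.091, adjusted p = 0.78). In JEKO it read 1.84 and 1.80 in BR, against 1.92 and 1.89 in PT, a change of -0.089 (95% interval -0.25 to 0.069, adjusted p = 0.604). Of the transporters, ABCC1 had the narrowest intervals in both lines.

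ABCC2 (MRP2) and ABCC3 (MRP3), exporters of organic anions in liver and gut, did not pass the filter. The single ABCC2 probe set read 0.42, 0.51 and 0.27 in HBL2 BR, 0.46, 0.18 and 0.75 in HBL2 PT, 0.69 and 0.44 in JEKO BR, and 0.33 and 0.52 in JEKO PT, with all groups overlapping. The 5 ABCC3 probe sets had means of 0.398 to 0.545 over the 10 arrays, and only 1 array value, 0.81 in HBL2 BR, reached the median. That brightest probe set (209641_s_at) averaged 0.703 ± 0.091 in HBL2 BR and 0.495 ± 0.14 in HBL2 PT (SD, n = 3 each), a change of 0.21 with a 95% interval of -0.016 to 0.43 (adjusted p = 0.38 in the limma fit of all probe sets). None of the 6 probe sets of ABCC2 and ABCC3 was called in either line in that fit.

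In JEKO, 0 of the 7 transporters tested were called by limma, against 4.28% of all genes (2.56% higher and 1.72% lower), and 1, ABCC4, had an unadjusted p under 0.05. The median change of the 7 was 0.056, against 0.012 over all genes. The BR and PT arrays did not overlap for 4 of the 7, namely ABCB1, ABCB4, ABCC1 and ABCC4, but with 2 arrays a group this held for 50.8% of all genes tested. Over the 22 probe sets it held for 8, against 43.3% of all probe sets, and in the fit of all probe sets 0 were called, against 1.22%. ABCC4 encodes MRP4, which exports cyclic nucleotides, prostaglandins and nucleotide analogues. Its main probe set (203196_at) read 0.78 and 0.83 in JEKO BR, against 0.019 and 0.53 in JEKO PT. The change of 0.53 ± 0.15 (adjusted p = 0.058) was exceeded in size by 1.04% of genes tested. Both BR arrays lay above both PT arrays, which stood far apart, and 1 PT array was near the bottom of the scale. Without JEKO PT replicate 2 it was 0.79 (adjusted p = 0.013), and without JEKO PT replicate 1 it was 0.27 (adjusted p = 0.48). It also passed without HBL2 PT replicate 3 (adjusted p = 0.046) or HBL2 BR replicate 3 (0.029) and with the replicate block (0.041).

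The other 3 ABCC4 probe sets did not repeat that change in JEKO. Their differences, BR minus PT, were 0.079 ± 0.11 (1554918_a_at), -0.25 ± 0.13 (1555039_a_at) and 0.064 ± 0.14 (243928_s_at), none of them called. In HBL2 the main probe set read 1.396, 1.34 and 0.94 in BR, against 1.30, 1.29 and 1.33 in PT, with 1 BR array below and 2 above the PT arrays, with a difference of -0.083 ± 0.12 (adjusted p = 0.75). There 1554918_a_at read 1.14, 1.13 and 1.15 in BR, against 0.799, 1.04 and 0.95 in PT, with no overlap, but its change of 0.21 ± 0.092 was not called (adjusted p = 0.29 in the limma fit of all probe sets). Over the 7 transporters, 0 had a called difference between the lines' changes by limma, with 2 (ABCC4 and ABCC5) at an unadjusted p under 0.05, against 8.71% of all genes called, 2.95% higher and 5.76% lower. Over the 22 probe sets 0 were called, against 3.1%. For ABCC4 the lines' changes on the main probe set differed by -0.61 ± 0.19, which was not called (adjusted p = 0.061). Read as the median of the gene's 4 probe sets, that difference was 0.024.

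**Figure D3:**
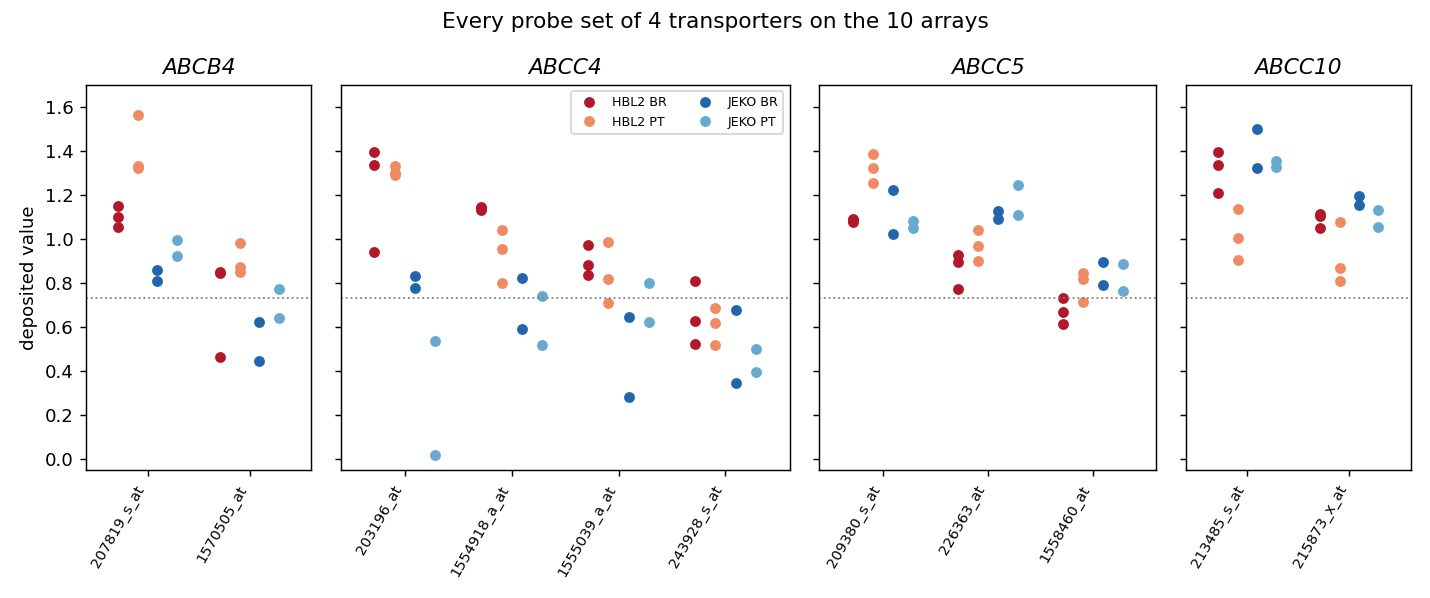
Deposited value (y axis) on every array for each probe set (x axis) of ABCB4, ABCC4, ABCC5 and ABCC10; colours are groups, points are arrays and the dotted line is the array median of 0.73. Both ABCC10 probe sets are lowest on average in HBL2 PT, all ABCC4 probe sets are lower on average in JEKO PT than in HBL2 PT, and the ABCC5 probe sets 209380_s_at and 226363_at order HBL2 PT and JEKO PT in opposite ways.

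Between HBL2 PT and JEKO PT, 4 of the 7 were called, against 23.1% of all genes tested, 3 higher in HBL2 PT (13.9% of all genes) and 1 lower (9.25%). Their arrays did not overlap for 5 of the 7, against 47.1% of all genes. Over the 22 probe sets 3 were called, against 10.6%, and 11 did not overlap, against 36.8%. This comparison shares its PT arrays with those above. ABCC4 averaged 1.31 ± 0.022 in HBL2 PT (SD, n = 3) and 0.28 ± 0.37 in JEKO PT (SD, n = 2), a difference of 1.03 ± 0.14 (adjusted p = 4.57e-05) exceeded in size by 0.66% of genes. All 4 of its probe sets were higher on average in HBL2 PT, and the gene stayed called in the 21 alternatives run. The other probe sets differed by 0.30 ± 0.10 (1554918_a_at), 0.13 ± 0.12 (1555039_a_at) and 0.16 ± 0.12 (243928_s_at). None of these was called (adjusted p = 0.079, 0.62 and 0.52 in the limma fit of all probe sets). On the main probe set (203196_at), JEKO PT replicate 1 read 0.019. ABCB4 averaged 1.41 ± 0.14 in HBL2 PT and 0.960 ± 0.051 in JEKO PT, a difference of 0.45 ± 0.081 (adjusted p = 8.18e-04), with its other probe set at 0.20 ± 0.12 and not called.

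ABCC10 was the one lower in HBL2 PT, at 1.01 ± 0.12 against 1.34 ± 0.021 in JEKO PT (SD, n = 3 and 2), a difference of -0.33 ± 0.083 (limma adjusted p = 0.0094). That call did not hold without JEKO PT replicate 1 (adjusted p = 0.051) or 2 (0.075). ABCC5 was higher in HBL2 PT on 209380_s_at (0.26 ± 0.074, adjusted p = 0.019) and lower on 226363_at (-0.21 ± 0.084, adjusted p = 0.15), so its direction depends on the probe set read. It was no longer called without HBL2 PT replicate 2 (adjusted p = 0.074), JEKO PT replicate 1 (0.12) or JEKO PT replicate 2 (0.076), and without either JEKO PT array 2 of the 7 were called. ABCC1 differed by -0.15 ± 0.068 (adjusted p = 0.14), and ABCB1 and ABCG2 by -0.057 and 0.13 (adjusted p = 0.82 and 0.69). The other ABCB1 probe set (209993_at, mean 0.48 over the 10 arrays) differed by -0.30 ± 0.12, with every HBL2 PT array below every JEKO PT array. It was not called (adjusted p = 0.13 in the limma fit of all probe sets).

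Genes next to the transporters were read for the 3 nearest tested genes on each side, in the gene order of the RefSeq table. Of 50 such genes, which include ABCB1 and ABCB4 as neighbours of each other, 10 were called in HBL2, 1 higher and 9 lower. Over all genes 11.8% were called, 4.91% higher and 6.86% lower. The transporter ABCB4 is itself 1 of the 9 lower. The median change over all genes tested was -9.87e-04, so changes below and above 0 were about equally common. Around ABCC5 on chromosome 3, all 6 neighbours had changes below 0 in HBL2 BR, and PARL, a mitochondrial rhomboid protease (-0.32 ± 0.056, adjusted p = 9.3e-04), DVL3, a Wnt signalling adaptor (-0.29 ± 0.058), and AP2M1, a clathrin adaptor subunit (-0.28 ± 0.073), fell. In JEKO none of these 6 was called, and their changes ran from -0.057 to 0.25. The call of AP2M1 was lost without HBL2 PT replicate 1 or 2 and without HBL2 BR replicate 1 or 2 (adjusted p = 0.066, 0.073, 0.108 and 0.060).

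Around ABCB4 on chromosome 7, all 6 neighbours also had changes below 0 in HBL2 BR. SLC25A40, a mitochondrial carrier, fell by 0.30 ± 0.077 (limma adjusted p = 0.017), and the noncoding TP53TG1 fell by 0.25 ± 0.074 (adjusted p = 0.038), while ABCB1, TMEM243, CROT and DBF4 were not called. SLC25A40 was no longer called without HBL2 PT replicate 2 (adjusted p = 0.090) or HBL2 BR replicate 2 (0.0799) or 3 (0.076), nor TP53TG1 without HBL2 PT replicate 1 or 2 or HBL2 BR replicate 1 or 2 (0.097 to 0.19). Around ABCC10 on chromosome 6 none of the 6 neighbours was called in either line, and their HBL2 changes ran from -0.27 to 0.11. The other called neighbours in HBL2 were NDE1 (-0.47), XYLT1 (-0.54) and MYH11 (0.56), near ABCC1, and PPM1K (-0.42), beside ABCG2. The MYH11 call was lost in 1 of 20 alternatives (limma adjusted p = 0.53). In JEKO the called neighbours were PPM1K (-0.44) and, near ABCB1, ADAM22 (0.52), 2 of 50 against 4.28% of all genes. The PPM1K call in JEKO did not hold without JEKO PT replicate 2 (adjusted p = 0.092) or JEKO BR replicate 1 (0.088), and that of ADAM22 without JEKO PT replicate 1 (0.15) or either JEKO BR array (0.079 and 0.11). When each gene was read as the median of its probe sets, PPM1K was called in neither line (adjusted p = 0.66 in HBL2 and 0.13 in JEKO), and NDE1 (0.65), XYLT1 (0.1988), PARL (0.056) and ADAM22 (0.92) were not called.

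**Figure D4:**
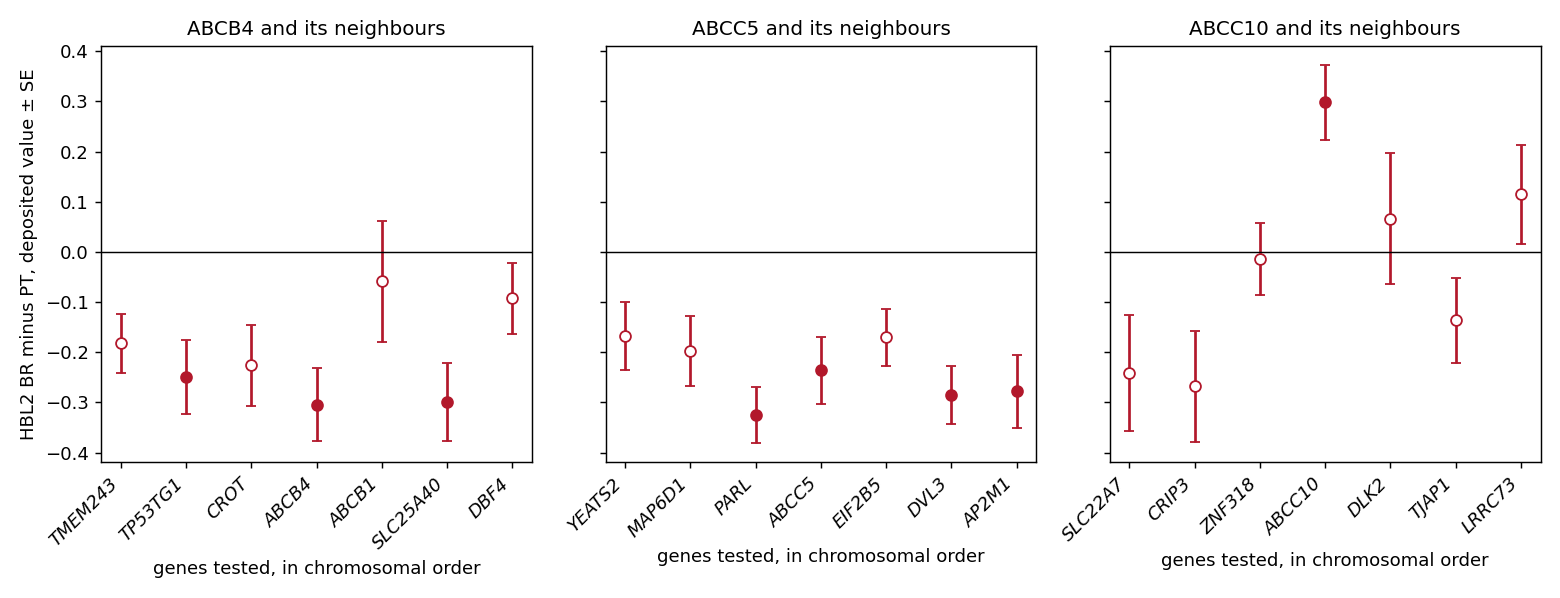
HBL2 change, BR minus PT, in deposited units (y axis, mean ± SE of the limma fit) for ABCB4, ABCC5 and ABCC10 and the 3 nearest tested genes on each side in chromosomal order (x axis); filled points have an adjusted p under 0.05. All points of the ABCB4 and ABCC5 panels lie below 0, while ABCC10 (0.30) stands above its neighbours, none of which is filled.

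The genes whose values over the 10 arrays were most like those of the called transporters were named by Pearson correlation. For ABCB4 the highest Pearson correlations were with CDK19 (r = 0.971), MBNL2 (0.969) and SLC22A15 (0.968). For ABCC5 they were with LOHAN2 (0.973), MED10 (0.955) and MAGEB1 (0.934), and for ABCC10 with CTDNEP1 (0.972), XAB2 (0.9601) and MUC13 (0.953). These are the top 3 genes tested for each, over 10 arrays that share 4 groups, and are given as a description.

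Of 39 other family genes listed, 35 were on the array and 22 were tested. Over all genes tested, 11.8% were called in HBL2 and 4.28% in JEKO. In HBL2, 1 of 22 fell and 0 rose, TAP1, the peptide transporter of antigen presentation (-0.27 ± 0.060, limma adjusted p = 0.0058). In JEKO, 1 fell and 0 rose, ABCG1, a cholesterol exporter (-0.30 ± 0.078, adjusted p = 0.0400). Their median changes were -0.024 in HBL2 and 0.018 in JEKO. The ABCG1 call was lost without any 1 JEKO array other than PT replicate 1, at an adjusted p of 0.15 to 0.34, and without HBL2 PT replicate 2, BR replicate 1 or BR replicate 2 (0.057 to 0.062).

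Detoxification genes include the glutathione transferases, which make conjugates that ABCC transporters carry. Of 17 tested, 1 rose and 1 fell in HBL2, and 1 rose and 1 fell in JEKO. Over all genes tested, 4.91% were called higher and 6.86% lower in HBL2, and 2.56% higher and 1.72% lower in JEKO. The HBL2 count of this list is near that background. GSTP1 averaged 2.98 ± 0.031 in HBL2 BR and 2.77 ± 0.12 in HBL2 PT (SD, n = 3 each), and 2.46 ± 0.016 in JEKO BR and 2.79 ± 0.025 in JEKO PT (SD, n = 2 each). It rose by 0.21 ± 0.061 in HBL2 (limma adjusted p = 0.038) and fell by 0.33 ± 0.075 in JEKO (adjusted p = 0.019), and the lines differed by 0.54 ± 0.097 (adjusted p = 0.0022). The difference kept its call in every alternative run. The JEKO call was lost without any 1 JEKO array (adjusted p = 0.088 to 0.17). The HBL2 call was lost in 12 of 22 alternatives (adjusted p up to 0.34). Among these were the fits without HBL2 PT replicate 2, any 1 HBL2 BR array or any 1 JEKO array (0.055 to 0.175). GSTM1 fell in HBL2 (-0.21 ± 0.060, adjusted p = 0.031) on a probe set that close relatives may share, and GSTK1 rose in JEKO (0.38 ± 0.093, adjusted p = 0.030). The GSTM1 call was lost without HBL2 PT replicate 1 or 3 or any 1 HBL2 BR array (0.052 to 0.10), and the GSTK1 call without any 1 JEKO array (0.0896 to 0.25).

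Of 16 tested transcription factors reported to control transporter genes, 1 rose and 2 fell in HBL2, against 11.8% of all genes called. In JEKO 0 were called by limma, against 4.28% of all genes, with 3 at an unadjusted p under 0.05. MYB rose by 0.31 ± 0.066 (adjusted p = 0.0045) and kept its call in the 22 alternatives run. NFE2L2, which encodes the oxidative stress factor NRF2, fell by 0.26 ± 0.063 (adjusted p = 0.011), and the immediate early factor EGR1 fell by 0.43 ± 0.12 (adjusted p = 0.023). The NFE2L2 call was lost in 3 of 22 alternatives (adjusted p up to 0.19), among them without HBL2 PT replicate 2 or BR replicate 3 (0.054 each). That of EGR1 was lost in 4 of 21, among them without HBL2 PT replicate 3 (0.0799) or BR replicate 2 (0.12). Of the B cell markers, CD79A (-0.35) and CD79B (-0.25) were called lower in HBL2 BR and CD22 (0.35) higher in JEKO BR. Of markers of other cell types, 1 of the 4 myeloid genes tested, LYZ, was called lower in HBL2 BR (-0.59, adjusted p = 0.0088). The others did not move together: ITGAM changed by -0.39 (not called), CSF1R by -0.0069 and MPO by -0.022, and CD14 averaged 0.30 in HBL2 BR against 0.23 in PT. LYZ reached the array median on 2 of 10 arrays and ITGAM on 3, and both had their highest group mean in HBL2 PT (0.93 and 0.86). Their place among the genes tested thus depends on the group where they were high. All 5 myeloid markers on the array had means below the array median. Their summed level was 2.36 to 2.69 in HBL2 BR, against 3.01 to 3.76 in HBL2 PT, with 0 listed at 0. The part of this sum in the changes of ABCB4, ABCC5 and ABCC10 was not tested. The beta-actin control value used as a covariate left 3 of 7 transporters called in HBL2.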

How the data were processed

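Total RNA was read on Affymetrix human expression arrays, 1 sample an array. The deposited values are scores: per the submitters' processing notes MAS5 was used, with no version given, and neither the later steps nor the base of the scale is stated in the labels. The sorted values were identical on the 10 arrays (largest difference 0), so the authors' scores carry the same distribution everywhere and a shift shared by most genes cannot be seen in them.

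Of 54675 probe sets, 62 controls, 1801 with several symbols and 11721 with none were left out. The brightest probe set stood for each gene, and genes at or above the array median on at least 2 arrays were tested. One limma fit (limma 3.58.1 in R 4.3.3, lmFit and eBayes with an intensity trend, 6 residual degrees of freedom) held the 4 group means, with Benjamini-Hochberg adjustment over 14529 genes and a threshold of 0.05. A second fit held all 41091 probe sets. The fit was tested on simulated data. The number of arrays limits the precision.

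The transporters, gene lists and rule for named genes were chosen with earlier results of these data known. The rule names every transporter, the called genes of each other list, called neighbours, all neighbours of a called transporter, and the 3 genes most like each called transporter. Alternatives changed the filter, trend, weights, block, probe set choice, scale, covariate or arrays used. An uncalled value that changed sign counts as reversed only where it moved by more than its SE.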

Additional observations from a re-analysis of the deposited data

Results flagged for a closer look

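None of the 7 transporters tested had a called difference between lines by the limma test of the HBL2 change minus the JEKO change. Of the other genes of the lists, the markers and the neighbours, 13 had one, 7 of them among the 50 neighbours. Over all genes tested 8.71% were called, and a count of 0 among 7 genes does not set the transporters apart from that share. Of the detoxification genes, GSTP1 differed by 0.54 (adjusted p = 0.0022) and kept its call in the 21 alternatives run. GSTK1 differed by -0.53 (0.011), lost in 2 of 21, and GSTM1 by -0.36 (0.025), lost in 8 of 20. Of the transcription factors, EGR1 differed by -0.73 (0.019), lost in 5 of 20, and HDAC1 by -0.37 (0.013), lost in 3 of 21. The B cell marker CD22 differed by -0.51 (0.014), lost in 2 of 21.

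Near ABCB4, TP53TG1 differed by -0.49 (limma adjusted p = 0.015), lost in 3 of 20 alternatives, TMEM243 by -0.34 (0.031), lost in 6 of 21, and CROT by -0.48 (0.027), lost in 9 of 21 and reversed in 1. TP53TG1 and CROT are among the nearest neighbours of ABCB1 too, as is ADAM22, which differed by -0.47 (0.049), lost in 14 of 20 and reversed in 1. Beside ABCC5, MAP6D1 differed by -0.45 (0.017), lost in 4 of 20. Near ABCC1, XYLT1 differed by -0.73 (0.0020), lost in 1 of 20, and MYH11 by 0.59 (0.017), lost in 5 of 19. HDAC1, CROT, TMEM243, MAP6D1 and CD22 were called for this difference, and of them CD22 was also called in a line, in JEKO.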

How the results depend on the processing

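The count of transporters called in HBL2 was 0 without _x_at and _s_at probe sets and 1 on percentile ranks, and 0 to 3 when 1 array was left out. In JEKO it was 1 with array weights, with the replicate block, without _x_at and _s_at probe sets and on percentile ranks, each time ABCC4, and 0 to 1 when 1 array was left out. For the difference between the lines it was 2 with array weights, 1 with the replicate block and 1 on percentile ranks, and 0 to 1 when 1 array was left out. Between HBL2 PT and JEKO PT it was 1 without _x_at and _s_at probe sets, and 2 to 4 when 1 array was left out. Leaving out the _x_at and _s_at probe sets also removed ABCC10 from the test in every comparison. ABCC4 turned to 0.10 in HBL2 and 0.024 in the difference between lines with the median over probe sets, and to 0.059 in HBL2 without HBL2 BR replicate 3. ABCC5 turned to -0.068 in JEKO without _x_at and _s_at probe sets and to -0.044 without JEKO BR replicate 1, and between HBL2 PT and JEKO PT to -0.096 with the median over probe sets and -0.21 without _x_at and _s_at probe sets. Without JEKO PT replicate 2, ABCG2 turned to -0.17 in JEKO, 0.14 in the difference between lines and -0.29 between HBL2 PT and JEKO PT. The differences between lines of ADAM22 and CROT turned to 0.12 and 0.054 with the median over probe sets. Leaving out 1 array gave -0.044 to 0.16 for ABCC5 in JEKO, and for ABCG2 -0.17 to 0.68 in JEKO, -0.70 to 0.14 for the difference between lines and -0.29 to 0.55 between HBL2 PT and JEKO PT. The cause was not tested. Of 33 calls of other named genes, 4 held in every alternative run and 29 were lost in at least 1.

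Over all genes, 1711 were called in HBL2, against 2684 with array weights and 1118 without HBL2 BR replicate 2. In JEKO 622 were called, against 1032 with array weights, 389 without the intensity trend, 942 without HBL2 PT replicate 3 and 120 to 281 without 1 JEKO array. For the difference between lines 1266 were called, against 1948 with array weights and 658 without JEKO BR replicate 2, and between HBL2 PT and JEKO PT 3361, against 1974 without JEKO PT replicate 2. Samples share only a replicate number: same-numbered deviations correlated at 0.017, 0.14 and 0.0075 in HBL2 and 0.078 in JEKO, and HBL2 BR replicate 1 correlated best with PT replicate 2 (0.091). With the replicate block 1741 genes were called in HBL2, 601 in JEKO, 1257 for the difference and 3402 between the PT groups, with ABCC4 called in JEKO (adjusted p = 0.041) and 3 transporters in HBL2. Signal that lies mostly below the array median limits what ABCB1, ABCC2, ABCC3 and ABCG2 can show.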

Other observations

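A further probe set (209994_s_at) is annotated to both ABCB4 and ABCB1 and was left out of the 22. It averaged 0.98 ± 0.044 in HBL2 BR and 1.30 ± 0.18 in HBL2 PT (SD, n = 3 each), and 0.76 ± 0.052 in JEKO BR and 0.79 ± 0.080 in JEKO PT (SD, n = 2 each). The HBL2 BR arrays all lay below the HBL2 PT arrays, while the JEKO groups overlapped.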
